A study of Mus musculus with 9 samples.

Results

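Heparan sulfate is a sulfated sugar chain that cells carry on core proteins at their surface and in the matrix, where it binds chemokines, growth factors and adhesion proteins. The Golgi enzymes that sulfate the chain set what it can bind, heparanase cuts it, and lysosomal enzymes take the fragments apart. This account follows 5 mouse genes of that cycle: the core protein Agrn, the sulfotransferases Hs6st1 and Hs3st6, the heparanase Hpse and the lysosomal iduronidase Idua. They were found by matching the RefSeq accession in each probe set's identifier to a gene, which gave 1 probe set for each of the 5, out of 909 genes named on the array. Choosing them took no measured value, but it was done with earlier results of these data known.

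The RNA came from purified CD8 T cells of B10D2 mice, all carrying a transgenic T cell receptor and all labelled female, on 9 single-colour Affymetrix arrays of the GLYCOv4 design. Deletion cells had met their cognate antigen in vivo as a weak signal (3 arrays), anergy cells had met it as a strong signal (3 arrays), and naive cells were the control (3 arrays). The study set out to compare glycosylation genes between deletion and anergy, 2 forms of tolerance, with naive cells as control. The labels give neither the antigen, the dose and the time, nor whether replicates came from separate animals. Each p-value reflects the spread among arrays within groups, pooled over all 3 groups, and that spread may therefore be technical.

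Each array gave a log2 expression value for 1246 probe sets, between 1.67 and 13.86, with array medians of 4.44 to 4.58. Replicates correlated at 0.995 to 0.998 within a group across probe sets. Anergy replicate 3 stood apart, its deviations from the group means having an SD of 0.166 (log2), where the other arrays had 0.0943 to 0.128. Of 9 genes listed as CD8 T cell markers 1 was measured, Cd2. It lay at 9.82 to 10.38 in deletion, 9.33 to 9.48 in anergy and 11.53 to 11.68 in naive cells. Cd8a, Cd8b1 and the Cd3 chains were not measured, so the CD8 identity of the cells could not be checked. In bulk RNA, fewer cells of a type and less RNA per cell cannot be told apart.

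Agrn and Hs6st1 had the largest changes among the 5 genes, and both were lower after either antigen signal than in naive cells. In deletion cells against naive cells 3 of the 5 genes were lower (Agrn, Hs6st1 and Idua) and 0 were higher by limma at an adjusted p under 0.05, where 10.5% of all probe sets were lower and 8.51% higher. In anergy cells against naive cells the same 3 were lower and Hpse was higher, where 16.1% of all probe sets were lower and 10.8% higher. Between deletion and anergy cells only Agrn passed, higher in deletion, where 2.09% of all probe sets were higher and 1.28% lower. Both comparisons with naive cells use the same 3 naive arrays.

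**Figure D1:**
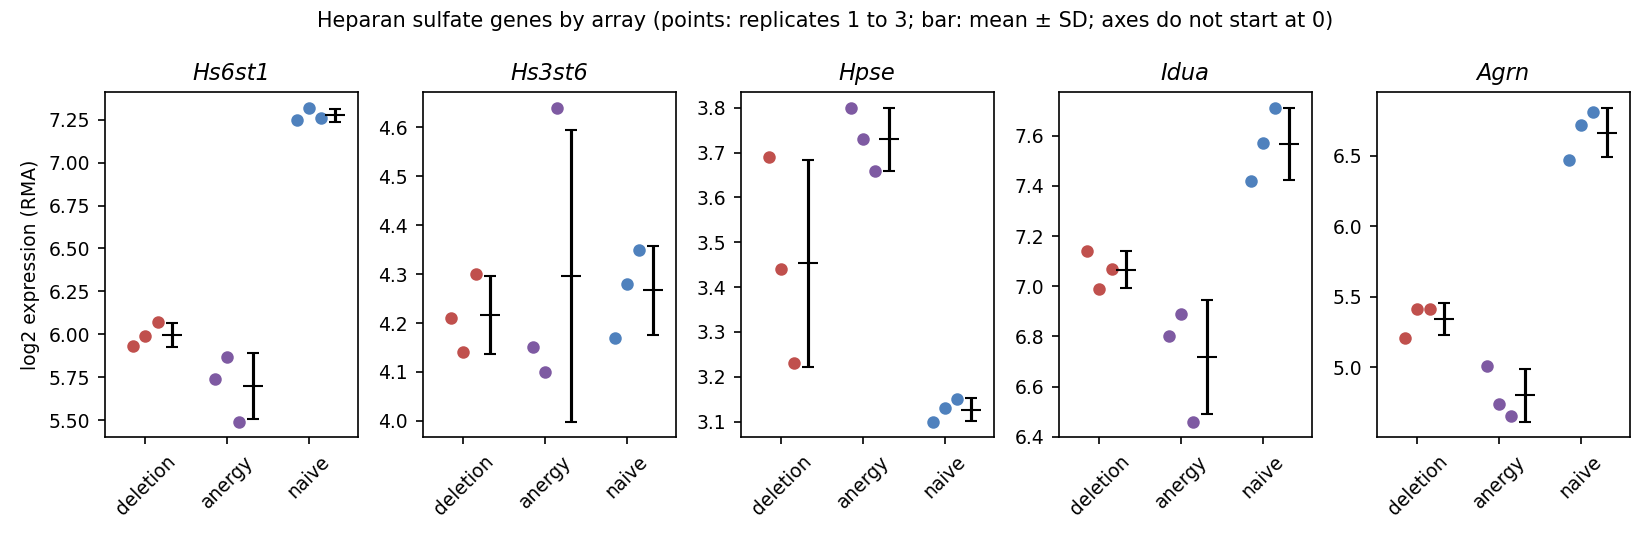
Log2 expression of the 5 genes on each array, in deletion, anergy and naive cells, with points for replicates 1 to 3 and a bar for the mean ± SD. Agrn, Hs6st1 and Idua lie highest in naive cells and lowest in anergy cells, Hpse lies lowest in naive cells, and the groups of Hs3st6 overlap.

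Agrn encodes the core protein of agrin, a large heparan sulfate proteoglycan known for clustering receptors at the nerve-muscle synapse and, in mouse T cells, found at the contact with antigen-presenting cells. Its log2 values were 5.21, 5.41 and 5.41 in deletion replicates 1 to 3, 5.01, 4.74 and 4.65 in anergy replicates 1 to 3, and 6.47, 6.72 and 6.81 in naive replicates 1 to 3. No values overlapped between any groups: every naive array lay above every deletion array, and every deletion array above every anergy array. The means were 5.34 ± 0.12 in deletion, 4.80 ± 0.19 in anergy and 6.67 ± 0.18 in naive cells (SD, n = 3 arrays each).

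Agrn was 2.50-fold lower in deletion than in naive cells (95% limits 2.09 to 3.00; log2 change -1.32 ± 0.12, SE; limma adjusted p = 2.014e-05). It was 3.65-fold lower in anergy than in naive cells (3.04 to 4.37; log2 change -1.87 ± 0.12; limma adjusted p = 1.058e-06), which placed it at rank 32 of 1246 probe sets by size of change. Both calls held in all 16 alternative settings. The arrays did not overlap in either comparison, as for 31.5% of all probe sets in deletion and 33.9% in anergy against naive cells. The gap between the closest arrays was 1.06 for deletion and 1.46 for anergy on the log2 scale.

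Between the 2 tolerant states Agrn was 1.46-fold higher in deletion than in anergy cells (95% limits 1.22 to 1.75; log2 change 0.54 ± 0.12, SE; limma adjusted p = 0.0335), at rank 40 by size of change. The arrays of the 2 groups did not overlap, as for 16.6% of all probe sets. The size of the change was similar in each of 16 alternative settings, from 0.47 to 0.65, but the adjusted p passed in only 8 of them. In this comparison the deviations of same-numbered arrays correlated weakly, at r = 0.195, 0.27 and 0.28. With a replicate block the limma adjusted p was 0.0535. Leaving out an array gave an adjusted p of 0.134 (deletion replicate 2), 0.127 (deletion replicate 3), 0.102 (anergy replicate 2), 0.110 (anergy replicate 3) or 0.0602 (naive replicate 2), and it stayed under the threshold when any other array was left out. Of 11 listed endothelial and stromal cell markers 5 were measured, with a mean log2 level of 3.91 to 3.92 in deletion, 3.79 to 3.86 in anergy and 3.84 to 3.88 in naive cells. Pecam1, which T cells also express, was the 1 called: it was higher in deletion than in anergy cells by 0.72 ± 0.09 (limma adjusted p = 0.00234), while Sele, Dcn, Lum and Bgn differed by -0.22 to 0.01 and did not pass. The 1 called was 20% of the 5 markers, against 3.37% of all probe sets. The part of endothelial and stromal cells in the level of Agrn was not tested.

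Hs6st1 encodes heparan sulfate 6-O-sulfotransferase 1, a Golgi enzyme that adds sulfate to the 6-O position of glucosamine, a modification that fibroblast growth factors and other ligands read. Its log2 values were 5.93, 5.99 and 6.07 in deletion replicates 1 to 3, 5.74, 5.87 and 5.49 in anergy replicates 1 to 3, and 7.25, 7.32 and 7.26 in naive replicates 1 to 3. The naive arrays lay within 0.07 of each other and at least 1.18 above any other array, and the lowest value was on anergy replicate 3.

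Hs6st1 was 2.43-fold lower in deletion than in naive cells (95% limits 2.10 to 2.80; log2 change -1.28 ± 0.09, SE; limma adjusted p = 4.659e-06). It was 2.98-fold lower in anergy than in naive cells (2.58 to 3.44; log2 change -1.58 ± 0.09; limma adjusted p = 6.942e-07). Each call held in all 16 alternative settings, with the log2 change between -1.32 and -1.24 for deletion and between -1.66 and -1.47 for anergy. Deletion exceeded anergy by 0.30 ± 0.09 (95% limits 0.09 to 0.50), the 3 arrays of each group did not overlap, and the difference did not pass (limma adjusted p = 0.126) here or in any of the 16 settings. It was 0.19 without anergy replicate 3 and 0.19 with array weights. Arrays of the 2 groups did not overlap for 16.6% of all probe sets in that comparison. Against naive cells the share was 31.5% in deletion and 33.9% in anergy.

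The 2 other 6-O-sulfotransferases on the array did not pass in any comparison. Hs6st2 differed by 0.06 ± 0.09 in deletion and by -0.02 ± 0.09 in anergy cells, each against naive cells (log2 change, SE), and Hs6st3 by 0.00 ± 0.10 and -0.08 ± 0.10 in the same comparisons. Hs6st2 had the identical value of 2.18 on 5 of the 9 arrays. Such repeats, on 4 or more arrays, were found for 13 of 46 measured heparan sulfate genes and for 25.8% of all probe sets, but for 0 of the 5 genes described here. The absence of repeats does not show signal above background.

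Hs3st6 encodes a heparan sulfate 3-O-sulfotransferase, an enzyme of the family that adds the rarest sulfate of the chain, the one known from the antithrombin site of heparin. Its log2 values were 4.21, 4.14 and 4.30 in deletion replicates 1 to 3, 4.15, 4.10 and 4.64 in anergy replicates 1 to 3, and 4.17, 4.28 and 4.35 in naive replicates 1 to 3. The groups overlapped in every comparison, and the highest value was again on anergy replicate 3, the array that stood apart.

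The log2 change of Hs3st6 was -0.08 ± 0.13 for deletion against anergy (95% limits -0.37 to 0.21), -0.05 ± 0.13 for deletion against naive (-0.34 to 0.24) and 0.03 ± 0.13 for anergy against naive (-0.26 to 0.32; SE, n = 3 arrays per group). None passed (limma adjusted p = 0.814, 0.902 and 0.909). Without anergy replicate 3 the first value became 0.09 and the last -0.14. The other measured 3-O-sulfotransferases, Hs3st1, Hs3st2, Hs3st3a1, Hs3st3b1 and Hs3st5, did not pass in any comparison. The largest change among them was that of Hs3st3b1, -0.39 ± 0.16 in deletion against naive cells (limma adjusted p = 0.150). On every array except anergy replicate 3, Hs3st6 lay below the array median. Hs3st5 had the identical value of 2.18 on 5 arrays, and Hs3st2 and Hs3st3a1 each repeated a value on 4. Without a detection call, an unchanged transcript cannot be told here from one that was not detected.

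Hpse encodes heparanase, the endoglucuronidase that cuts heparan sulfate chains inside endosomes and, when released, in the matrix; platelets and activated leukocytes are known sources. Its log2 values were 3.69, 3.44 and 3.23 in deletion replicates 1 to 3, 3.80, 3.73 and 3.66 in anergy replicates 1 to 3, and 3.10, 3.13 and 3.15 in naive replicates 1 to 3. All 6 arrays of antigen-stimulated cells lay above the naive arrays, and the deletion arrays were spread over 0.46, the highest of them above the lowest anergy array. All of these values lie below the array medians. Without a detection call a fold change this low on the scale may be understated, as it may for B3galt6, Gpc2 and Sulf2, described further on.

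Hpse was 1.52-fold higher in anergy than in naive cells (95% limits 1.29 to 1.78; log2 change 0.60 ± 0.10, SE; limma adjusted p = 0.00136), a call that held in all 15 settings in which it was tested. In deletion against naive cells the log2 change was 0.33 ± 0.10 (95% limits 0.10 to 0.56) and missed the threshold (limma adjusted p = 0.0546), although the arrays did not overlap, as for 31.5% of all probe sets. It passed in 5 of 15 settings, among them that without deletion replicate 3, the lowest of its group (0.44, limma adjusted p = 0.00878), while without deletion replicate 1, the highest, the change was 0.21 (limma adjusted p = 0.156). Deletion differed from anergy by -0.28 ± 0.10, which did not pass (limma adjusted p = 0.215), and passed without deletion replicate 1 at -0.40 (limma adjusted p = 0.0414). Without deletion replicate 3 it was -0.17 (limma adjusted p = 0.490). Hpse2, which encodes a relative of heparanase without that activity, differed by -0.09 ± 0.05 in deletion and -0.01 ± 0.05 in anergy cells against naive cells.

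Markers of platelets were measured for 4 of 8 listed genes. Their mean log2 level was 3.41 to 3.53 in deletion, 3.46 to 3.53 in anergy and 3.45 to 3.54 in naive cells, and 0 of the 4 passed in either comparison with naive cells. Of 7 measured macrophage and dendritic cell markers 1 was higher after either signal, Cd83, which activated T cells also express. The mean log2 level of the 7 was 4.25 to 4.51 in deletion, 4.16 to 4.22 in anergy and 3.84 to 4.09 in naive cells. The naive arrays thus lay below all others. Of 4 measured B cell markers 2 were higher and 1 lower in deletion and 1 higher and 1 lower in anergy than in naive cells, with a mean log2 level of 5.94 to 6.34 in deletion, 5.88 to 6.03 in anergy and 5.96 to 6.11 in naive cells. Of 3 NK cell markers 1 was higher in deletion and 2 in anergy, Klrc1 in each, with a mean level of 4.14 to 4.58 in deletion, 5.16 to 5.19 in anergy and 3.29 to 3.38 in naive cells. Siglecf was the 1 of 3 neutrophil and mast cell markers that passed, higher by 0.33 ± 0.09 in deletion and by 0.39 ± 0.09 in anergy cells. Of all probe sets 19.0% were called in deletion and 26.8% in anergy against naive cells. For B cell markers the share was 75% and 50%, and for NK cell markers 33.3% and 66.7%. It was 14.3% in each for macrophage and dendritic cell markers, and 33.3% in each for neutrophil and mast cell markers. The part of these markers' cells in the level of Hpse was not tested.

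Idua encodes alpha-L-iduronidase, the lysosomal enzyme that removes terminal iduronic acid from heparan and dermatan sulfate and whose loss causes mucopolysaccharidosis type I. Its log2 values were 7.14, 6.99 and 7.07 in deletion replicates 1 to 3, 6.80, 6.89 and 6.46 in anergy replicates 1 to 3, and 7.42, 7.57 and 7.71 in naive replicates 1 to 3. The groups did not overlap, with naive highest and anergy lowest, and anergy replicate 3 again gave the lowest value. Of all probe sets 31.5% did not overlap in deletion and 33.9% in anergy against naive cells. Between deletion and anergy it was 16.6%, and the gap of Idua there was 0.1.

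Idua was 1.41-fold lower in deletion than in naive cells (95% limits 1.18 to 1.69; log2 change -0.50 ± 0.12, SE; limma adjusted p = 0.0115) and 1.80-fold lower in anergy than in naive cells (1.51 to 2.16; log2 change -0.85 ± 0.12; limma adjusted p = 0.000331). The anergy call held in all 16 settings, without anergy replicate 3 among them. The deletion call was lost in 1 setting, without naive replicate 3 (limma adjusted p = 0.0538). Deletion exceeded anergy by 0.35 ± 0.12 (95% limits 0.09 to 0.61), which did not pass (limma adjusted p = 0.153). Without anergy replicate 3 this difference was 0.22, and over all 16 settings it ranged up to 0.44.

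**Figure D2:**
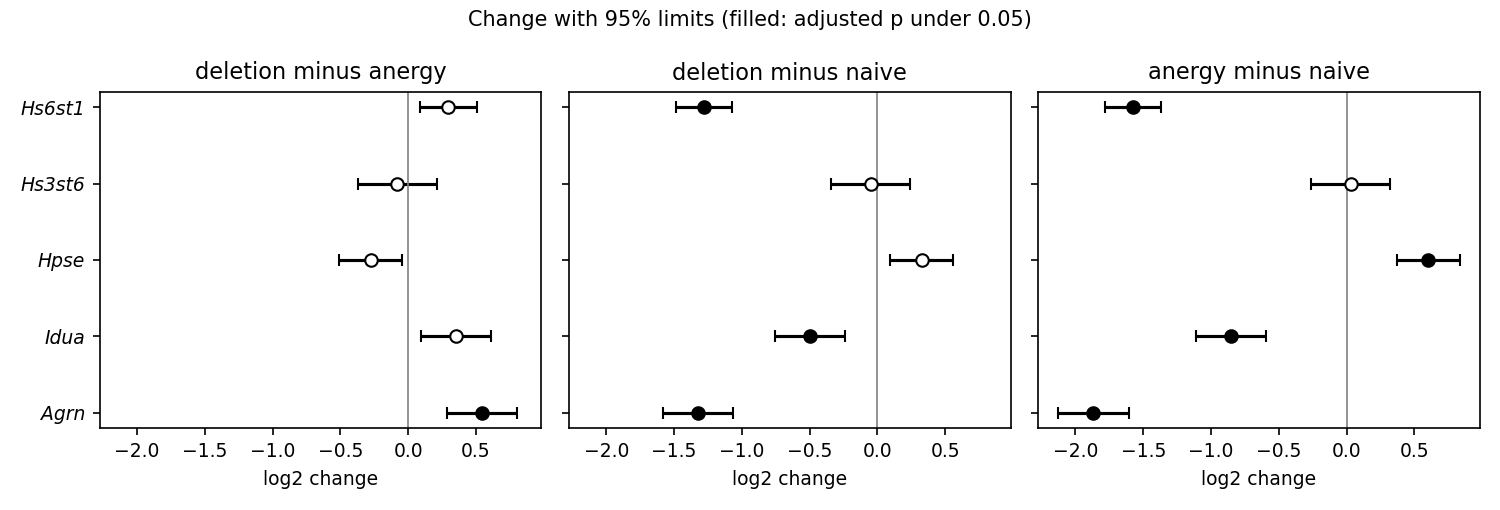
Log2 change of each gene in the 3 comparisons, with 95% limits from limma; filled points have an adjusted p under 0.05. Agrn is the 1 gene called between deletion and anergy, and the limits of Hs3st6 include 0 in all 3 panels.

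Agrn, Hs6st1 and Idua thus had the same order, naive above deletion above anergy, with no overlap between any groups. Across the array 6.66% of probe sets had groups that did not overlap with deletion in the middle, in either direction. Cd2, the 1 measured gene of the CD8 T cell list, had the same order without overlap. It differed by -1.57 ± 0.14 in deletion and -2.18 ± 0.14 in anergy against naive cells (limma adjusted p = 1.703e-05 and 1.036e-06). Deletion exceeded anergy for Cd2 by 0.61 ± 0.14 (limma adjusted p = 0.0390). Hpse had the opposite order of means, and its deletion and anergy arrays overlapped. Across the 9 arrays, which form 3 groups, Hs6st1 and Agrn correlated at r = 0.98, Idua with them at 0.935 and 0.944, and Hpse at -0.867 with Hs6st1 and -0.886 with Agrn. Hs3st6 lay between -0.251 and -0.0637 against the other 4 genes.

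The 3 genes most like each of these were found by Pearson's r over the 9 arrays, as a description. For Agrn they were Il27ra (0.996), which encodes an interleukin-27 receptor chain, Neu1 (0.990), a lysosomal sialidase, and Il21r (0.989), the interleukin-21 receptor. For Hs6st1 they were Galnt10 (0.993) and Galnt6 (0.992), which start O-GalNAc glycans, and Pkd1 (0.992), the gene of polycystin-1. For Idua they were Man2a2 (0.984), an N-glycan mannosidase, Sulf2 (0.976), an extracellular heparan sulfate 6-O-endosulfatase, and Mcoln1 (0.973), a lysosomal cation channel. For Hpse they were Ddb1 (0.947), a DNA damage binding protein, Pmm1 (0.932), a phosphomannomutase, and B4galt5 (0.930), a galactosyltransferase. For Hs3st6 they were Muc20 (0.934), Cntfr (0.932) and Mgat5 (0.932), none of which passed against naive cells in either group. Hs3st6 was at 4.64 on anergy replicate 3 and at 4.10 to 4.35 on the other arrays. Its correlations may therefore rest largely on that 1 array, and they were not computed without it.

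The promoters of Agrn and Hs6st1, whose transcripts fell most, are shown beside those of Idua, which fell less, and Hpse, which rose in anergy. A RefSeq-derived table of GRCm38.p6 promoters held 4 of the 5 genes, and the window runs from 250 bases before to 50 after the start site, on the gene's strand. Capitals mark the GC box, GGGCGG on either strand, the motif bound by factors of the Sp and KLF families. The Agrn window lies at chr4:156197439-156197738 (minus strand), that of Hs6st1 at chr1:36068150-36068449 (plus), that of Idua at chr5:108660081-108660380 (plus) and that of Hpse at chr5:100719667-100719966 (minus).
Agrn: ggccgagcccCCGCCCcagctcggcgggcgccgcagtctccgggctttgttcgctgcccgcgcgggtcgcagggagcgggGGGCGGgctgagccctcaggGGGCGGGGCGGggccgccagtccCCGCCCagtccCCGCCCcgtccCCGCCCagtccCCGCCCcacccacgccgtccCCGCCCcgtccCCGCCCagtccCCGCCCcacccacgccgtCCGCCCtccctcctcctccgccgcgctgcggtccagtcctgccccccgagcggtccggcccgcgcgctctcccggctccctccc
Hs6st1: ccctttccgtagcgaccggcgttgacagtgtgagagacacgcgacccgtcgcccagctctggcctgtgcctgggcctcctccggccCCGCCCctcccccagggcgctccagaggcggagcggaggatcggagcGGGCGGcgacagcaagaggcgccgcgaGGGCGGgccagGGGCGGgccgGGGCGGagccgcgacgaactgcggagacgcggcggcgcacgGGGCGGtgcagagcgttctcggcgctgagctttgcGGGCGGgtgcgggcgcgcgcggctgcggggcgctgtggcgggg
Idua: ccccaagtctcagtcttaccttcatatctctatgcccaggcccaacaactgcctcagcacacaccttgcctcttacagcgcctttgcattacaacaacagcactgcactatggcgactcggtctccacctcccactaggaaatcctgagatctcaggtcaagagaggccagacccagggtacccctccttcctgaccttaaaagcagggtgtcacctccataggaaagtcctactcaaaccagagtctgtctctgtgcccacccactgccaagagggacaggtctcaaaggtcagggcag
Hpse: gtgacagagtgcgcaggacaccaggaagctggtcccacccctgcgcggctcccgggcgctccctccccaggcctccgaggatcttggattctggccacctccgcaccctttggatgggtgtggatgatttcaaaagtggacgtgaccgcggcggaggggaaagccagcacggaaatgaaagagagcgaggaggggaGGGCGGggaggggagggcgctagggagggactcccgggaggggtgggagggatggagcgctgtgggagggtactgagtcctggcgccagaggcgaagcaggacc

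The GC box was matched 12 times in the Agrn window, 7 times in that of Hs6st1, 0 times in that of Idua and 1 time in that of Hpse, and 35.7% of 32851 promoter windows of the same length held at least 1. Overlapping matches were counted separately. How many of all windows held as many matches as Agrn or Hs6st1 was not counted. A further start site of Agrn, at chr4:156186210-156186509, had 2 matches. GC content was 83.3% at the upstream Agrn start, 78% for Hs6st1, 54.3% for Idua and 67% for Hpse, with a median of 52.7% over all windows. The letters CACCC, also bound by KLF factors, occurred 2 times for Agrn, 1 time for Hs6st1, 2 times for Idua and 4 times for Hpse, and in 57.5% of all windows. The 1 in Hs6st1 shares bases with a GC box match. On either strand, none of the 5 windows held the FOXO-type letters GTAAACA (3.65% of all windows) or the ETS-type letters CCGGAAGT (3.89%). The same was true of the AP-1 letters TGANTCA, with 7.81% of all windows, and of the E-box CACGTG, with 7.15%. Nor were TATAAA (13.6% of all windows), the CCAAT box (37.4%) or the NFAT-type letters TGGAAA (21.4%) found there. A match describes the sequence and is no measured binding site, and a link to the transcript changes was not tested.

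The rest of the heparan sulfate pathway was described with 6 lists of 54 genes from textbook knowledge, of which 46 were measured, the 5 genes above included. In deletion against naive cells 10 of the 46 were lower, 0 were higher and 36 did not pass (21.7% called, against 19.0% of all probe sets), with a median log2 change of -0.07 (all probe sets -0.02). In anergy against naive cells 15 were lower, 2 were higher and 29 did not pass (37% called, against 26.8% of all probe sets), with a median of -0.15 (all probe sets 0.01). Without the 5 genes the counts over the other 41 were 7 lower and 0 higher in deletion, and 12 lower and 1 higher in anergy. The share called was then 17.1% in deletion, against 19.0% of all probe sets, and 31.7% in anergy, against 26.8%. The lower counts ranged over the alternatives from 7 to 13 for deletion and from 11 to 16 for anergy. After quantile normalization the split in deletion was 12 lower and 2 higher.

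The chain is started on a tetrasaccharide linkage region that heparan and chondroitin sulfate share. Of 5 measured linkage genes 2 were lower in deletion and 3 in anergy than in naive cells, and 0 were higher. The share called was 40% in deletion, against 19.0% of all probe sets, and 60% in anergy, against 26.8%. Xylt2, which adds the first xylose, differed by -0.78 ± 0.10 in deletion and -1.29 ± 0.10 in anergy cells against naive cells (log2 change, SE; limma adjusted p = 0.000359 and 7.456e-06). B3galt6, the second galactosyltransferase of the linkage, differed by -0.44 ± 0.07 in deletion and by -0.24 ± 0.07 in anergy cells, and its call in anergy held in 7 of 15 settings. B4galt7, the first galactosyltransferase, was at -0.43 ± 0.14 in deletion, which did not pass (limma adjusted p = 0.0666), and fell in anergy, at -0.63 ± 0.14. Of 5 polymerisation genes only Ext2, a subunit of the copolymerase, passed, in anergy at -0.29 ± 0.09, and this held in 5 of 16 settings. That was 20% of the list, against 26.8% of all probe sets.

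Of 15 measured genes of sulfation and epimerisation, Hs6st1 and Glce were lower in deletion, and Hs6st1, Glce and Ndst1 in anergy. The share called was 13.3% in deletion, below the 19.0% of all probe sets, and 20% in anergy, below 26.8%. Glce encodes the epimerase that turns glucuronic into iduronic acid, and it differed by -0.68 ± 0.15 in deletion and -0.66 ± 0.15 in anergy cells against naive cells (limma adjusted p = 0.00913 and 0.00836). Ndst1, the N-deacetylase and N-sulfotransferase that starts sulfation of the chain, differed by -0.65 ± 0.11 in anergy (limma adjusted p = 0.0011) and -0.32 ± 0.11 in deletion, which did not pass. Hs6st1 had the largest fall of the list in each comparison with naive cells. Of the extracellular genes Sulf2, which removes 6-O-sulfate from finished chains, was lower after either signal, at -0.31 ± 0.07 in deletion and -0.51 ± 0.07 in anergy cells. Its deletion call was lost without deletion replicate 2 or naive replicate 3. The transcript of an enzyme that adds 6-O-sulfate and that of one that removes it were both below naive cells.

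In the lysosome, Idua was the 1 of 4 measured heparan sulfate degrading genes called in deletion against naive cells. The share called was 25% in deletion, against 19.0% of all probe sets. In anergy it was 100%, with 3 lower and 1 higher, against 26.8%. In anergy cells Sgsh, the N-sulfoglucosamine sulfohydrolase, differed by -0.48 ± 0.11 and Naglu, the alpha-N-acetylglucosaminidase, by -0.57 ± 0.11 (limma adjusted p = 0.00764 and 0.0026). Gusb, the beta-glucuronidase, went the other way at 0.32 ± 0.10 (limma adjusted p = 0.0424), a call that held in 6 of 16 settings. In deletion cells Sgsh was at -0.03 ± 0.11, Naglu at -0.15 ± 0.11 and Gusb at 0.16 ± 0.10, none of them past the threshold. In deletion against anergy cells Sgsh differed by 0.45 and Naglu by 0.42, and neither passed (limma adjusted p = 0.0595 and 0.0692).

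Of 13 measured core protein genes 4 were lower after either signal and 0 were higher. The share called was 30.8% in each comparison, against 19.0% of all probe sets in deletion and 26.8% in anergy. Tgfbr3, the part-time proteoglycan betaglycan that presents TGF-beta, was lower by more than Agrn: -3.29 ± 0.11 in deletion and -3.14 ± 0.11 in anergy cells against naive cells. The glypican Gpc1 differed by -0.60 ± 0.11 and -0.38 ± 0.11, and Gpc2 by -0.34 ± 0.08 and -0.33 ± 0.08, in the same comparisons. The call of Gpc1 in anergy was lost without anergy replicate 2, naive replicate 1 or naive replicate 2. That of Gpc2 was lost in deletion without deletion replicate 3, naive replicate 2 or naive replicate 3, and in anergy without anergy replicate 2 or naive replicate 2. Sdc1, Sdc2, Sdc3 and Sdc4, the syndecans, did not pass, with changes between -0.20 and 0.09. Dag1, the 1 measured agrin receptor of 3 listed, encodes dystroglycan and differed by -0.34 ± 0.09 in deletion and -0.52 ± 0.09 in anergy cells against naive cells, a call in each. Without deletion replicate 1, deletion replicate 3, naive replicate 1 or naive replicate 2 the deletion call of Dag1 was lost.

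**Figure D3:**
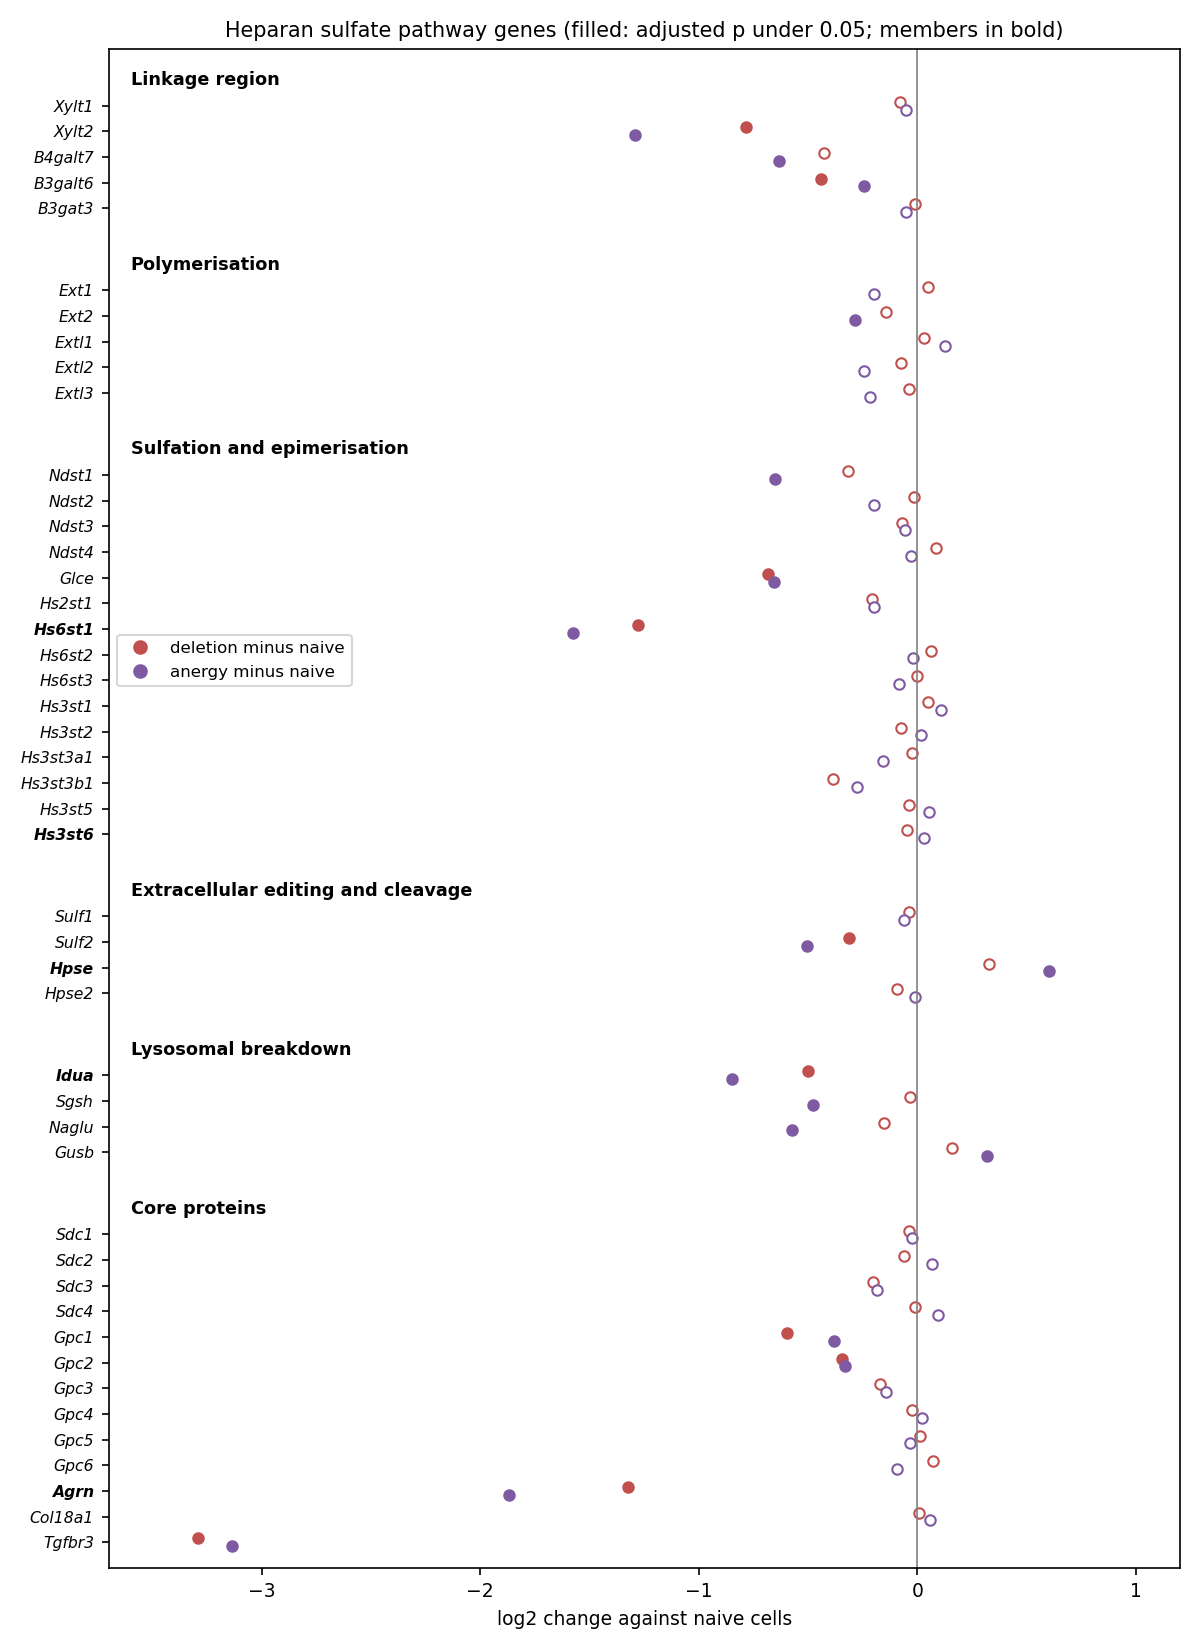
Log2 change against naive cells of the 46 measured heparan sulfate genes, grouped by role, in deletion (red) and anergy cells (purple); filled points have an adjusted p under 0.05 and the 5 genes described in full are in bold. Most points lie near 0, filled points lie mainly to the left, and Tgfbr3, Agrn and Hs6st1 lie farthest left.

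Between deletion and anergy cells 2 of the 46 genes were higher in deletion, Agrn and Xylt2 (0.51 ± 0.10, limma adjusted p = 0.0261), and 0 were lower, 4.35% called against 3.37% of all probe sets. After quantile normalization 3 were higher and 1 lower, and after median centring 0 and 0. The higher count also changed with single arrays: leaving out 1 array gave 0 (deletion replicate 2 or 3, or anergy replicate 2 or 3), 1 (deletion replicate 1 or naive replicate 2) or 4 (anergy replicate 1). Of 3 measured genes that supply the sulfate donor, Slc35b3, which carries it into the Golgi, was higher in deletion than in anergy by 0.68 ± 0.13 (limma adjusted p = 0.023), and it differed by -0.69 ± 0.13 in anergy against naive cells. Its call between deletion and anergy was lost when any 1 of the 3 deletion arrays was left out and after median centring, and that of Xylt2 without deletion replicate 1, 2 or 3 or anergy replicate 2 or 3. Papss1, which makes the donor, differed by 0.35 ± 0.10 between deletion and anergy (limma adjusted p = 0.0858).

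Genes of chondroitin and dermatan sulfate, which use the same linkage and sulfate donor, moved both ways. Of 13 measured, 3 were higher and 2 lower in deletion, and 4 higher and 3 lower in anergy, than in naive cells. That is 38.5% called in deletion, against 19.0% of all probe sets, and 53.8% in anergy, against 26.8%. Chst3, a chondroitin 6-O-sulfotransferase, differed by 2.26 ± 0.18 in deletion and 1.35 ± 0.18 in anergy, Chst11, a 4-O-sulfotransferase, by 0.37 ± 0.07 and 0.69 ± 0.07, and Chsy1, a chondroitin synthase, by 0.43 ± 0.12 and 0.77 ± 0.12. Chst15, which adds a further sulfate to chondroitin 4-O-sulfate, was at -0.75 ± 0.12 and -0.98 ± 0.12, and Csgalnact2, an enzyme that starts the chondroitin chain, at -0.72 ± 0.15 and -0.85 ± 0.15. Chst12, a further 4-O-sulfotransferase, was at 0.28 ± 0.13 in deletion, which did not pass, and at 0.85 ± 0.13 in anergy, and Ust, a 2-O-sulfotransferase, at -0.36 ± 0.13, which did not pass, and -0.76 ± 0.13. The deletion call of Chsy1 held in 8 of 16 settings. In deletion against anergy cells 1 of the 13 was higher and 2 were lower, 23.1% called against 3.37% of all probe sets. Chst3 differed by 0.91 ± 0.18, Chst11 by -0.32 ± 0.07 and Chst12 by -0.57 ± 0.13 (limma adjusted p = 0.023, 0.0358 and 0.0458). These 3 calls held in 10, 7 and 6 of 16 settings.

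**Figure D4:**
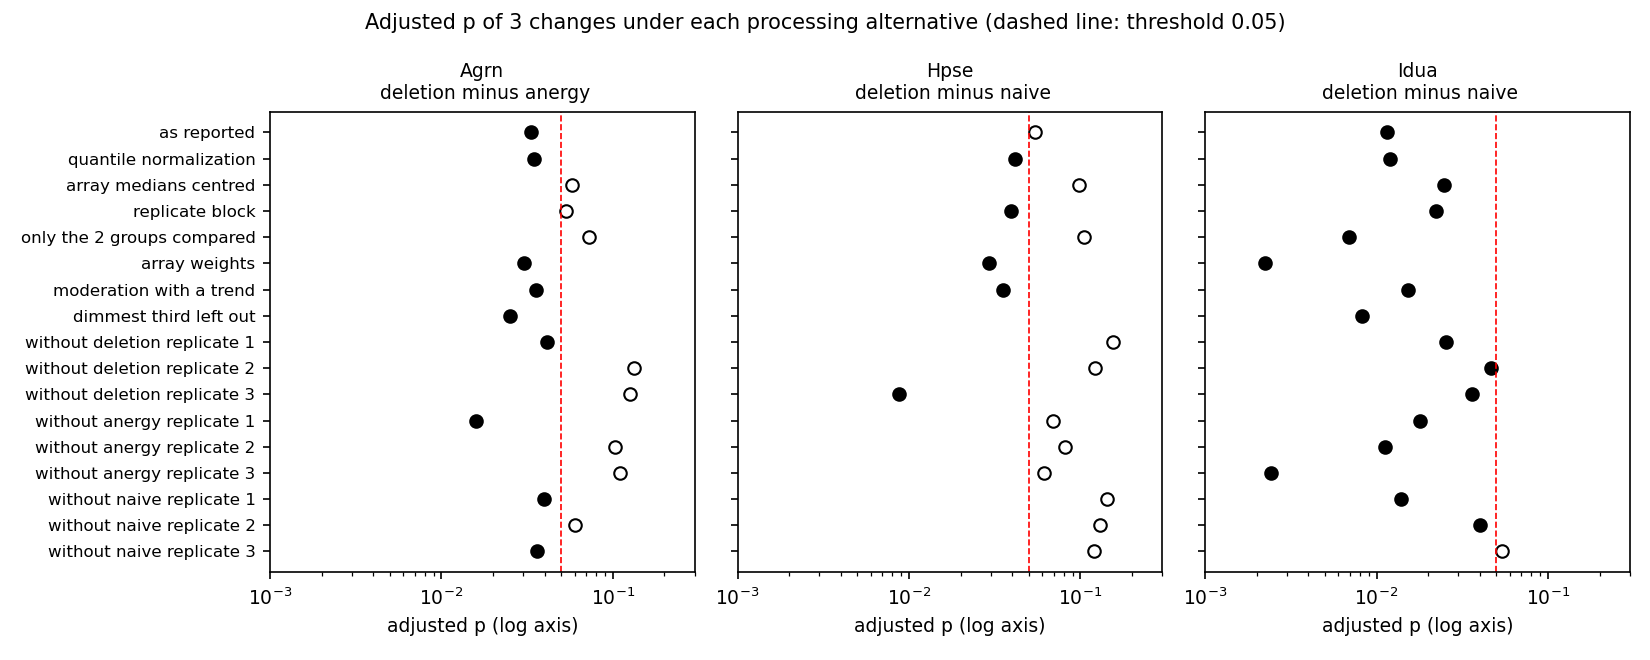
Adjusted p on a log axis for Agrn in deletion minus anergy, Hpse in deletion minus naive and Idua in deletion minus naive, as reported and under each alternative, with the threshold of 0.05 dashed. Agrn passes in 8 of 16 alternatives, Hpse in 5 of 15 and Idua in 15 of 16.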

How the data were processed

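Expression was measured on single-colour arrays. The deposited values are log2 expression, and the submitters' processing notes name RMA and nothing else. For the version of RMA and for filters the sources used here give no detail. That the scale is log2 was inferred from RMA and the range of the values. RMA summarises the probes of a set by a robust fit, and no detection column was used.

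The values were used without further scaling or filter. Of 1246 probe sets 963 (77.3%) were named through a RefSeq table of GRCm38.p6. Where a list gene had several probe sets, the brightest on average was taken. All 9 arrays entered 1 fit with limma 3.58.1 (lmFit, eBayes) in R 4.3.3, with group as the only term, 6 residual and 3.65 prior degrees of freedom, two-sided tests, and Benjamini-Hochberg adjustment over 1246 probe sets at 0.05. The fit was tested on simulated data with independent normal errors, which does not test the results given here. Standard errors of deletion minus anergy had a median of 0.087, and precision is limited by the number of arrays.

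The 5 genes and the lists were chosen with earlier results of these data known. Named besides them are list genes past the threshold, up to 6 per list, other members of the same enzyme families, chosen after their values were seen, and the 3 genes most correlated with each of the 5. Deviations of same-numbered arrays correlated at r = 0.195, 0.27 and 0.28 for deletion and anergy. The values were -0.136, 0.118 and -0.142 for deletion and naive, and -0.154, 0.274 and 0.175 for anergy and naive. The labels state no pairing of the replicate numbers. Alternatives were quantile normalization, median centring, a replicate block, a fit of only 2 groups, array weights, a trend in the moderation, leaving out the dimmest 33.3% of probe sets and leaving out each array.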

Additional observations from a re-analysis of the deposited data

How the results depend on the processing

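Of the 5 genes, Agrn and Hs6st1 against naive cells, and Hpse and Idua in anergy against naive cells, kept their direction and their call in every alternative run; Hpse fell among the dimmest probe sets and had no value when these were left out. Agrn in deletion against anergy kept its direction but not its call after median centring (0.58, adjusted p = 0.0579), with a replicate block (0.54, adjusted p = 0.0535) and with only the 2 groups (0.54, adjusted p = 0.0727), and ranged from 0.47 to 0.65 without single arrays. Hpse in deletion against naive passed after quantile normalization (0.35), with array weights (0.37), with a trend (0.33) and with a replicate block (0.33, limma adjusted p = 0.0393). The labels state no pairing for such a block. The change ranged from 0.21 to 0.44 without single arrays. Hpse in deletion against anergy ranged from -0.40 to -0.17 and Idua in deletion against naive from -0.57 to -0.43 without single arrays. Hs3st6, never called, changed sign in deletion against anergy with array weights (0.067) and without anergy replicate 3 (0.092; range -0.18 to 0.092). It did so in anergy against naive after quantile normalization (-0.014), median centring (-0.017) and array weights (-0.11), and without anergy replicate 3 (-0.14) or naive replicate 1 (-0.018; range -0.14 to 0.13).

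Heparan sulfate genes higher in deletion than in anergy numbered 0 after median centring, 0 with only the 2 groups, 4 with array weights and 0 to 4 without single arrays, and those lower numbered 1 after quantile normalization and 0 to 1 without single arrays. Genes higher in deletion than in naive cells numbered 2 after quantile normalization, 1 with a replicate block, array weights or a trend, and 0 to 1 without single arrays. Genes higher in anergy than in naive cells numbered 1 after median centring, with only the 2 groups, with a trend and without the dimmest probe sets, and 1 to 2 without single arrays. The causes were not tested. Fits with fewer arrays or groups also have fewer residual degrees of freedom. Signal over background could not be judged without a detection column, which limits the dim genes, among them Hpse, B3galt6, Gpc2 and Sulf2, all in the dimmest 33.3%.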

Other observations

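Anergy replicate 3, the array that stood apart, held the lowest value of its group for Agrn (4.65), Hs6st1 (5.49), Idua (6.46) and Hpse (3.66), and the highest for Hs3st6 (4.64). Its median, 4.58, was the highest of the 9 arrays.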
